A study of Homo sapiens with 8 samples.

Results

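The regions described here are the stretches of open chromatin in windows named after 6 genes: CNTN5, FAT3, AUTS2, FMN2, RGS7 and TMTC2. The selection grouped them as long neural genes. Each gene is represented by 1 window on build hg19. The windows were chosen by the measured calls themselves, because they lie at or near runs of regions that were open in KOSC-2 and not called in HSC-3. A run here has at least 5 such regions along a chromosome, and other regions, some with HSC-3 calls, may lie between them. All peaks of the 8 libraries were merged wherever they shared at least 1 bp, and a region is a member if it overlaps a window by at least 1 bp. This gave 162 of 80588 regions (0.201%), of which 13 were in the CNTN5 window, 72 in the FAT3 window, 25 in the AUTS2 window, 14 in the FMN2 window, 18 in the RGS7 window and 20 in the TMTC2 window. The difference between the lines is therefore given as a description without a test, and the windows' names follow the selection: no hg19 gene annotation was used here, so it was not examined where in a gene, or whether in it, a region lies.

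Open chromatin was mapped by ATAC-seq: the transposase Tn5 cuts and tags DNA that is not packed by nucleosomes. KOSC-2 and HSC-3 are established cell lines of oral squamous cell carcinoma, which the labels call radiosensitive and radioresistant. Each line received 0 Gy or 8 Gy and was frozen 24 hours later, giving 4 groups of 2 libraries. No genetic change or drug is named for any group, all cells were grown in the same serum-containing medium, and 1 line stands for each class of radiosensitivity, so line and class cannot be told apart. Separate cultures are not stated for the replicates, and p-values then measure only the spread between these libraries. The labelled cell type could not be set against marker genes, because genes were not placed on hg19.

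Long genes of the nervous system are often silent in epithelial cells, and accessible regions within them are usually distal elements such as enhancers rather than promoters. CNTN5 encodes a contactin, a cell adhesion protein of the immunoglobulin superfamily anchored in the neuronal membrane, and FAT3 a giant atypical cadherin that helps to shape neurons. AUTS2 encodes a nuclear protein of neural development that binds a Polycomb complex, and FMN2 a formin, which nucleates actin filaments. RGS7 encodes a regulator that speeds the shut-off of G protein signals in neurons, and TMTC2 an enzyme of the endoplasmic reticulum that adds mannose to cadherins.

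The KOSC-2 libraries called more regions in the windows than the HSC-3 libraries. The counts compare the lines only: whether the windows are densely open for the genome was not examined. Over the 6 windows, which span 8.235 Mb, the KOSC-2 libraries called 53 and 91 regions without irradiation and 109 and 98 regions after 8 Gy. The HSC-3 libraries called 8 and 5 regions without irradiation and 7 and 10 after 8 Gy. No HSC-3 library reached the count of any KOSC-2 library. As a share of each library's list, the windows held 0.195% ± 0.0398 of the peaks in KOSC-2 and 0.0237% ± 0.00524 in HSC-3 (SD, n = 4 each), and the shares of the lines did not overlap (0.139% to 0.231% against 0.0191% to 0.0311%).

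Library size and quality differed within both lines, and these values stand beside the contrast. The lists held 38321 to 51764 peaks in KOSC-2 and 22592 to 43176 in HSC-3. The background, the measure of depth used here, was 20.2 to 64.8 reads per 10 kb. It is the lowest value recovered at any peak of a list, and its unit rests on an assumed fragment length of 300 bp. Enrichment, the median summit pileup of regions called in all 8 libraries over that background, was lowest in HSC-3 8 Gy replicate 1 (21.9), KOSC-2 0 Gy replicate 1 (25.7) and HSC-3 0 Gy replicate 2 (34.7), against 49.6 to 67.3 in the other libraries. The 2 long HSC-3 lists, with 42015 and 43176 peaks, called 8 and 10 regions in the windows, whereas the shorter KOSC-2 list of 38321 peaks called 53. Without the 3 libraries of lowest enrichment the KOSC-2 share exceeded the HSC-3 share by 0.193 percentage points, against 0.172 with all libraries. When every list was cut to the length of the shortest, this difference was 0.103.

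**Figure D1:**
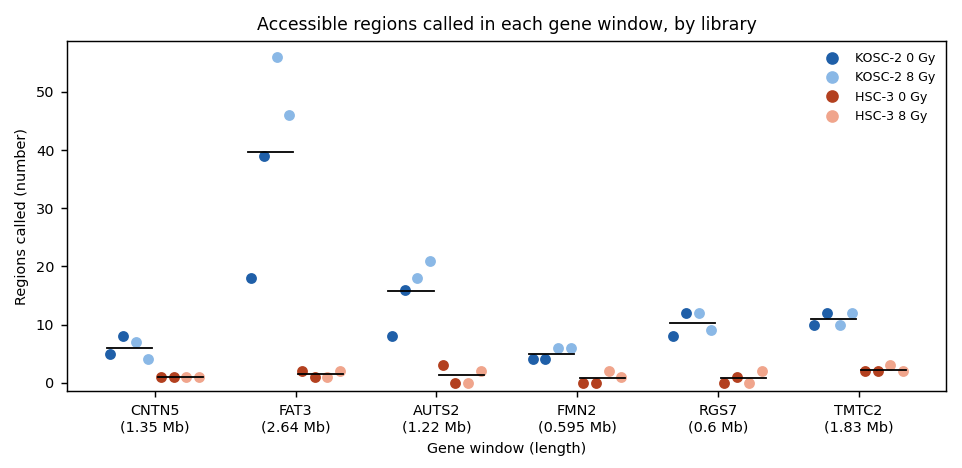
Number of regions called (vertical axis) in each gene window (horizontal axis, with window length) in each of the 8 libraries; points are libraries coloured by line and dose, and black bars are means of the 4 libraries of a line. KOSC-2 points lie above HSC-3 points in every window, with the widest spread in the FAT3 window, where KOSC-2 libraries called 18 to 56 regions.

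A library call is counted once for each region and library. The 162 regions held 351 calls from KOSC-2 and 30 from HSC-3, so that HSC-3 gave 7.87% of the calls, against 42.3% over all regions of the genome. Of the 162 regions, 146 had no HSC-3 call, 12 were called in both lines and 4 only in HSC-3 libraries. The calls were spread unevenly over KOSC-2 libraries: of the 158 regions with a KOSC-2 call, 63 were called in 1 library, 29 in 2, 34 in 3 and 32 in all 4. Regions of 1 library made up 39.9% of these, against 32.2% over the genome, and regions of all 4 libraries 20.3% against 38.0%.

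Regions called in 4 of 4 KOSC-2 libraries and 0 of 4 HSC-3 libraries are called KOSC-2-only. The windows held 25 of them (15.4% of their regions), against a background of 2.07% of all regions, a ratio from which nothing is read because the windows were chosen near such regions. There were 9 in the FAT3 window, 6 in the TMTC2 window, 5 in the AUTS2 window, 3 in the RGS7 window and 1 each in the CNTN5 and FMN2 windows. The reverse pattern, HSC-3-only, was found in 0 regions of the windows and in 0.300% of all regions. Regions called in all 8 libraries numbered 3, or 1.85%, against 15.9% of all regions. The windows were chosen near regions without HSC-3 calls, so nothing is read from the HSC-3-only share or from this one either. The count of KOSC-2-only regions depended on KOSC-2 0 Gy replicate 1, the KOSC-2 library of lowest enrichment: without it the windows held 52 (34.2% of their regions, against 5.55% of all regions). With lists of equal length the windows held 7 (12.1% against 1.68% of all regions), and none of these was in the CNTN5 or FMN2 windows.

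**Figure D2:**
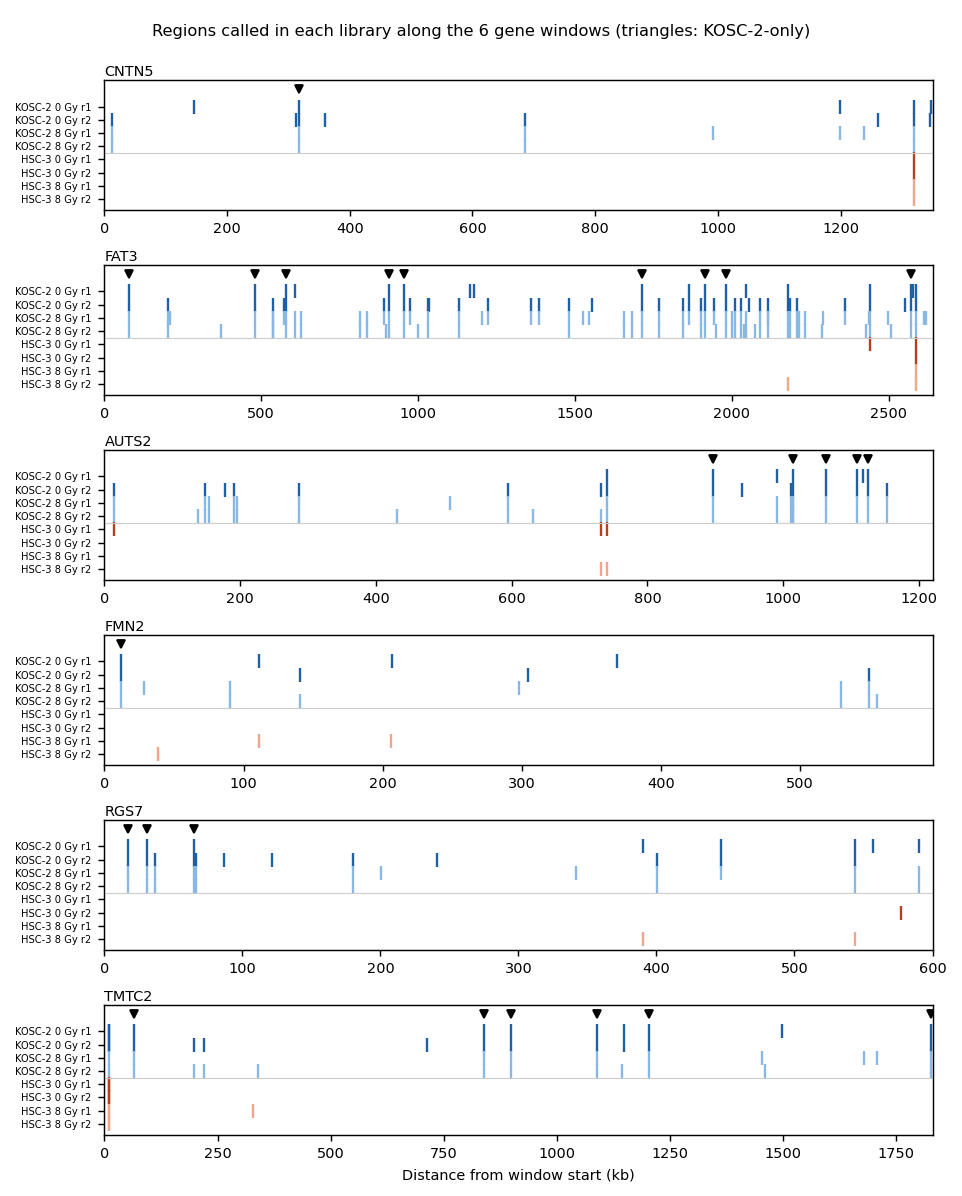
Position of every region called in each library along the 6 windows (horizontal axis, distance from the window start in kb; vertical axis, library, r1 and r2 being replicates), with the 25 KOSC-2-only regions marked by triangles. KOSC-2 marks run along each window, whereas HSC-3 marks stand at 16 regions in all, 3 of which are shared by all 8 libraries.

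Of the 6 windows, that of FAT3, the longest at 2.64 Mb, was the most densely called in KOSC-2 after RGS7, with 27.3 regions per Mb. KOSC-2 libraries called 18 and 39 of its regions at 0 Gy and 56 and 46 at 8 Gy, while HSC-3 libraries called 2 and 1 at 0 Gy and 1 and 2 at 8 Gy. The lowest KOSC-2 count was thus far above the highest HSC-3 count, and KOSC-2 0 Gy replicate 1 stood lowest in its line. HSC-3 gave 3.64% of the calls in this window, the lowest share of the 6 windows. From the window start to the first HSC-3 call lay 2181 kb, in which KOSC-2 had 53 regions and 8 of the 9 KOSC-2-only regions.

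The highest KOSC-2-only region of the FAT3 window by rank within the lists was chr11:90480056-90480820, 765 bp wide. Its summit pileup, the height in overlapping reads recovered from the deposited fold and p, was 26 and 41 in the KOSC-2 libraries at 0 Gy and 61 and 53 at 8 Gy. The 8 Gy libraries were both above the 0 Gy libraries there, and no HSC-3 library called it. The other 8 KOSC-2-only regions had pileups of 11 to 32. At chr11:92586032-92586733 all 8 libraries had a call, with pileups of 37, 74, 41 and 34 in KOSC-2 (0 Gy replicates 1 and 2, then 8 Gy) and 29, 14, 20 and 16 in HSC-3 in the same order. This is the one place in the FAT3 window where every HSC-3 library had a peak, near the window's far end. HSC-3 also had single calls at chr11:92180266-92180818 (pileup 8, in 8 Gy replicate 2) and chr11:92440252-92440941 (pileup 17, in 0 Gy replicate 1), both open in all 4 KOSC-2 libraries.

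The CNTN5 window held few regions for its 1.35 Mb. KOSC-2 libraries called 5 and 8 regions at 0 Gy and 7 and 4 at 8 Gy, and each HSC-3 library called 1. That 1 region was the same in every HSC-3 library, chr11:100199322-100200561, and it was also open in all KOSC-2 libraries. Its pileup was 50, 77, 72 and 52 in KOSC-2 and 26, 9, 18 and 13 in HSC-3. The only KOSC-2-only region, chr11:99196549-99196969, had pileups of 21, 20, 17 and 20 and stood near the middle of the KOSC-2 lists (mean percentile 48.9 by −log10 p, where 100 is the strongest peak of a list). The nearest run lay outside the window: it comprised 12 KOSC-2-only regions and began 8.57 kb past the window end.

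In the AUTS2 window, KOSC-2 libraries called 8 and 16 regions at 0 Gy and 18 and 21 at 8 Gy, and HSC-3 libraries called 3, 0, 0 and 2 in the same order. The 5 KOSC-2-only regions formed a run of 5, from chr7:69945949 to 70175619, in the last part of the window. The strongest, chr7:70063938-70064427, had pileups of 44 and 54 at 0 Gy and 38 and 38 at 8 Gy. Here the untreated libraries were the higher ones. Most HSC-3 calls, 2 each, fell in a pair of nearby regions. Of these chr7:69790637-69791118 had pileups of 14, 17, 27 and 16 in KOSC-2 and of 11 and 12 in HSC-3 0 Gy replicate 1 and 8 Gy replicate 2, which had the long lists of that line. The same HSC-3 libraries called chr7:69781797-69782754, with pileups of 14 and 11, and KOSC-2 called it in 0 Gy replicate 2 (13) and 8 Gy replicate 2 (16). The last 305 kb of the window had 29 KOSC-2 calls and 0 HSC-3 calls, while the 305 kb before held 11 and 4.

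FMN2 and RGS7 lie close together, and 1 run of 5 KOSC-2-only regions reached into both windows. It had 1 in the FMN2 window, 3 in the RGS7 window and 1 in the interval between. The FMN2 region of that run, chr1:240061406-240061758, had pileups of 21, 17, 23 and 13. It was the only one of the 14 regions of the FMN2 window called in 4 libraries, and 7 of the others were called in a single KOSC-2 library. KOSC-2 libraries called 4 and 4 regions in this window at 0 Gy and 6 and 6 at 8 Gy, and HSC-3 libraries 0 and 0 at 0 Gy and 2 and 1 at 8 Gy. All 3 HSC-3 calls were in different regions, and all lay within the span of the run. Of these regions 1, chr1:240160865-240161435, also had a KOSC-2 call (pileup 17 in KOSC-2 0 Gy replicate 1 and 14 in HSC-3 8 Gy replicate 1).

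The RGS7 window held the strongest KOSC-2-only region of all 6, chr1:240946670-240947692, 1023 bp wide. Its pileups were 46 and 76 at 0 Gy and 65 and 67 at 8 Gy, and its mean percentile in the KOSC-2 lists was 90.4. The doses overlapped at this region. The other KOSC-2-only regions, chr1:240960193-240960755 with pileups of 24, 27, 21 and 21 and chr1:240994477-240995421 with 23, 20, 43 and 39, came next along the window, the farther one centred 64.9 kb from its start. KOSC-2 libraries called 8 and 12 regions at 0 Gy and 12 and 9 at 8 Gy over the window, and HSC-3 libraries 0, 1, 0 and 2. The HSC-3 calls were at 3 separate regions. Among them chr1:241473731-241474175 was open in all KOSC-2 libraries (pileups 33, 18, 21 and 17) and had a pileup of 15 in HSC-3 8 Gy replicate 2.

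The TMTC2 window had the highest HSC-3 share of calls of the 6, 17.0%, and 8 of its 9 HSC-3 calls lay in a pair of regions centred 9.68 and 10.9 kb from its start. At chr12:83080043-83081714 all 8 libraries had a call, with pileups of 84, 91, 110 and 89 in KOSC-2 and 83, 30, 54 and 84 in HSC-3. A smaller region 150 bp before it, chr12:83079471-83079892, was called in all 4 HSC-3 libraries and in both KOSC-2 libraries at 0 Gy. After a single HSC-3 call at chr12:83399169-83399575, the remaining 1501 kb of the window had 14 KOSC-2 regions, 5 of them KOSC-2-only, and no HSC-3 call. KOSC-2 libraries called 10 and 12 regions at 0 Gy and 10 and 12 at 8 Gy in the window, and HSC-3 libraries 2 and 2, then 3 and 2. The strongest of its 6 KOSC-2-only regions was chr12:83134120-83134769, with pileups of 24, 40, 31 and 29.

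At the 3 regions shared by all libraries, heights were separate between the lines in the CNTN5 window and overlapped in the FAT3 and TMTC2 windows. Height is given relative to the library's own scale, as the summit pileup over the median pileup of regions called in all 8 libraries. At the shared CNTN5 region the relative height was 1.0, 1.48, 1.18 and 1.06 in KOSC-2 and 0.619, 0.429, 0.643 and 0.333 in HSC-3, so the lines did not overlap. At the shared TMTC2 region it was 1.68, 1.75, 1.80 and 1.82 in KOSC-2 and 1.98, 1.43, 1.93 and 2.15 in HSC-3, so the HSC-3 libraries lay on both sides of the KOSC-2 libraries. At the shared FAT3 region the values were 0.740, 1.42, 0.672 and 0.694 in KOSC-2 and 0.690, 0.667, 0.714 and 0.410 in HSC-3, and these overlapped.

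Most KOSC-2-only regions of the windows were of modest height. Their mean relative height in KOSC-2 had a median of 0.435 and ranged from 0.279 to 1.20, and 9 of the 25 reached 0.5. Their median width was 650 bp, against 603 bp for all KOSC-2-only regions, and their median percentile was 46.5 against 43.4. The smallest relative height called in the HSC-3 libraries was 0.143, 0.238, 0.286 and 0.128, so a region as high as in KOSC-2 exceeded the smallest call of 3 HSC-3 libraries in 25 of 25 cases and of HSC-3 8 Gy replicate 1 in 24. A stricter limit is the 10th percentile of the heights called in a library. Of the 25 regions, 25 were above it in HSC-3 0 Gy replicate 1 and 25 in 8 Gy replicate 2, but 13 in 0 Gy replicate 2 and 10 in 8 Gy replicate 1. In these last 2 libraries, which had the short lists, many of the regions were thus near the limit of detection, and lower accessibility in HSC-3 is not separable there from none.

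**Figure D3:**
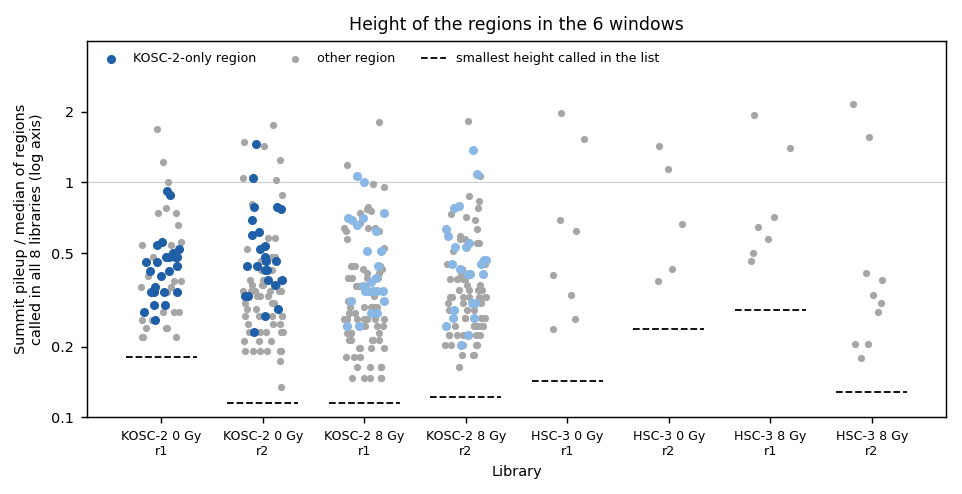
Relative height of each called region of the windows in each library (vertical log axis, summit pileup over the library's median for regions called in all 8 libraries; horizontal axis, library, r1 and r2 being replicates). Coloured points are KOSC-2-only regions, grey points other regions, and dashed lines the smallest height called anywhere in that list, 0.286 in HSC-3 8 Gy replicate 1 and 0.128 in HSC-3 8 Gy replicate 2; horizontal scatter within a library has no meaning.

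The genome as a whole gives the frame for these shares. Of fixed 1 Mb tiles, 2251 had at least 20 KOSC-2 calls, and the HSC-3 share of calls in them had a median of 42.6% (quartiles 38.1% and 47.2%). Tiles at or below the share of a window numbered 26 for FAT3, 32 for RGS7, 34 for AUTS2, 46 for FMN2, 50 for CNTN5 and 60 for TMTC2, or 1.16% to 2.67% of tiles. The tiles counted include those that touch the windows, and the limit of 20 KOSC-2 calls per tile was not applied to the windows. The windows also differ in length from the tiles and their ends were placed with the calls known, so this describes their place and tests nothing. Tiles with 0 HSC-3 calls numbered 21 (0.933% of the tiles). The 2 of them with most KOSC-2 calls, 53 and 47, both lay in the FAT3 window, and 1 each touched the AUTS2 and CNTN5 windows. The most similar tiles outside the windows were chr19:20000001-21000000 with 37 KOSC-2 calls, chr16:59000001-60000000 with 36 and chr5:83000001-84000000 with 36, so the pattern was found elsewhere too.

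**Figure D4:**
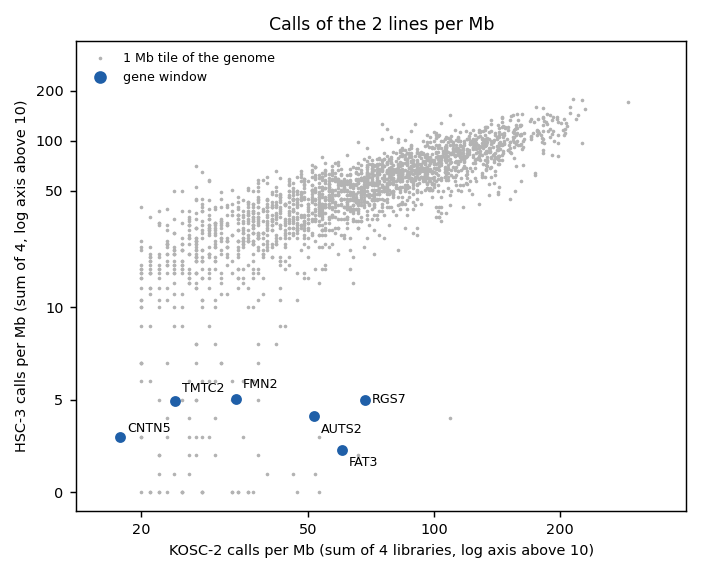
Library calls per Mb in KOSC-2 (horizontal axis) and HSC-3 (vertical axis), each summed over 4 libraries, on axes that are linear to 10 and logarithmic above; grey points are the 2251 tiles of 1 Mb with at least 20 KOSC-2 calls and blue points the 6 windows. All 6 windows lie far below the main cloud of tiles, beside a sparse set of other tiles with few HSC-3 calls.

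The window ends were not all ends of the pattern. Outside the RGS7 window end, the next 500 kb had 88 KOSC-2 and 67 HSC-3 calls (43.2% from HSC-3), and the first region beyond it, chr1:241576642-241577540, was called in all 8 libraries, whereas the last region inside, chr1:241519896-241520739, had 3 KOSC-2 calls and 0 HSC-3 calls. Before the TMTC2 window the flank had 20 and 19 calls, with 4 KOSC-2 and 2 HSC-3 calls in the first region outside (chr12:83045245-83045666) and 2 and 4 in the first inside. Past its other end the flank had 16 KOSC-2 and 6 HSC-3 calls (27.3% from HSC-3, against 17.0% in the window). There chr12:84896141-84897324 inside had 4 KOSC-2 calls and 0 HSC-3 calls and chr12:84902050-84903307 outside had 4 and 1. The flanks of the FAT3 window were also called in both lines, with 38.5% and 39.2% of calls from HSC-3. The first regions outside it, chr11:89989624-89990111 and chr11:92665136-92665496, each had 1 KOSC-2 call, and those inside, chr11:90077607-90078151 and chr11:92619486-92619818, had 4 and 1.

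At the other windows the low HSC-3 share went on beyond the ends, except before FMN2, where it was higher than in the window. The 500 kb past the CNTN5 window had 73 KOSC-2 calls and 0 HSC-3 calls, with 10 KOSC-2-only regions, more than the window's own 1. There the last region inside, chr11:100226967-100227266, had 1 KOSC-2 call and the first outside, chr11:100238569-100239109, had 4. At the CNTN5 start the regions inside (chr11:98891355-98892001) and outside (chr11:98811659-98812026) had 3 and 2 KOSC-2 calls and no HSC-3 call. The 285 kb between the FMN2 and RGS7 windows had 11 KOSC-2 calls and 0 HSC-3 calls. Regions at those ends had 1 KOSC-2 call inside FMN2 (chr1:240605140-240605448), 3 outside it (chr1:240656114-240656734) and 1 outside RGS7 (chr1:240929063-240929464). Before FMN2 the flank had 26 and 7 calls (21.2% from HSC-3, against 13.0% in the window), and 1 of its regions was called in all 8 libraries. The first region outside (chr1:240029059-240029435) had 1 KOSC-2 call. AUTS2 had 17 and 1 calls before its window and 5 and 0 after it. Its first regions inside, chr7:69062909-69063879 and chr7:70203054-70203441, had 3 KOSC-2 calls each, the former with 1 HSC-3 call. Those outside had 1 HSC-3 call and no KOSC-2 call (chr7:69033207-69033519) and 2 KOSC-2 calls (chr7:70294125-70294505).

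The second comparison was between doses, which the choice of windows did not use. The share of each list's peaks in a window was compared between 8 Gy and 0 Gy by an exact two-sided permutation test that exchanged doses within each line (36 assignments). The smallest p this design can give is 0.0556, so no window could pass the threshold of 0.05. In the FMN2 window the share was 0.0105% and 0.00880% in KOSC-2 at 0 Gy and 0.0116% and 0.0141% at 8 Gy, and 0% in both HSC-3 libraries at 0 Gy against 0.00889% and 0.00232% at 8 Gy. All 8 Gy libraries were above all 0 Gy libraries of their line, the mean difference was 0.00443 percentage points, and the exact permutation p was the smallest possible, 0.0556. It rests on 4 to 6 calls in each KOSC-2 library and 0 to 2 in each HSC-3 library. With lists of equal length the difference was 0.00111 with an exact permutation p of 1. Without HSC-3 8 Gy replicate 1 it was 0.00278. Over all alternatives with doses exchanged freely within lines, this p ranged from 0.0556 to 1.

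In the FAT3 window the KOSC-2 mean share was 0.0664% at 0 Gy and 0.108% at 8 Gy, and the HSC-3 means were 0.00451% and 0.00454%; the exact permutation p was 0.167. Counts in KOSC-2 did not overlap between doses (18 and 39 against 56 and 46). The lowest of them came from 0 Gy replicate 1, whose enrichment was 25.7 where the remaining KOSC-2 libraries had 49.6 to 67.3, and without that library the difference between doses over both lines was 0.0113 percentage points, against 0.0210 with it. It was also 0.0113 without the 3 libraries of lowest enrichment and 0.00889 with lists of equal length, and exact permutation p-values were 0.167, 0.333 and 0.5 in these 3 settings. AUTS2 had KOSC-2 means of 0.0281% and 0.0422% and an exact permutation p of 0.556; its difference over both lines, 0.00643 percentage points, was 0.00286 and 0.00999 without KOSC-2 0 Gy replicates 1 and 2, and 0.0101 and 0.00275 without 8 Gy replicates 1 and 2. The p-values of the same exact permutation test were 0.5 for CNTN5 and 0.944 each for RGS7 and TMTC2. The KOSC-2 mean was lower at 8 Gy in these 3 windows, with differences of -0.00385, -0.00144 and -0.00245 percentage points.

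Single regions were compared in the same way across the genome, on whether a library called them. With Benjamini-Hochberg adjustment over all 80588 regions, 0 passed (0.00%), and 0 had an unadjusted exact permutation p under 0.05, since the design cannot give one. In the windows the smallest unadjusted p of this exact permutation test was 0.333.

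Regions called in both KOSC-2 libraries at 8 Gy and in neither at 0 Gy are called gained, and the reverse lost. The windows had 14 gained regions (8.64%, against a background of 3.51% of all regions) and 2 lost regions (1.23%, against 0.870%). The gained share was also taken over regions without an HSC-3 call alone: it was 9.59% of the 146 in the windows and 5.95% of all such regions, while the lost share was 0.685% and 1.12%. In HSC-3 no region of the windows was gained or lost, against backgrounds of 0.680% and 0.957% of all regions. Either needs calls in both HSC-3 libraries of a dose. The windows were chosen near regions without HSC-3 calls: 146 of their 162 regions had none and 10 had a call in 1 HSC-3 library. Nothing is therefore read from this absence. Of the 14 gained regions 9 were in the FAT3 window, 3 in the AUTS2 window and 2 in the FMN2 window.

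The gained regions were low peaks, with pileups of 9 to 32 at 8 Gy. The strongest by rank in each window were chr11:92002048-92002622 near FAT3 (pileups 32 and 27), chr7:69245346-69245677 near AUTS2 (18 and 10) and chr1:240578898-240579494 near FMN2 (15 and 16). The gained region chr7:70064866-70065171 (22 and 22) lay 438 bp from the strongest KOSC-2-only region near AUTS2, described above. The other 13 were over 1 kb from the nearest region. Near TMTC2 the lost region chr12:84217356-84217790 had pileups of 28 and 19 at 0 Gy. The second lost region was the one 150 bp before the region shared by all libraries, with pileups of 39 and 54 in KOSC-2 at 0 Gy and of 64, 24, 39 and 61 in HSC-3.

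Both counts moved with the libraries used. With 1 KOSC-2 library left out, its dose rests on 1 library, so gained and lost are more loosely defined and tend to rise everywhere. Without 0 Gy replicate 1 the windows had 18 gained regions (11.8% against 5.02% of all regions). Without KOSC-2 0 Gy replicate 2 the windows had 42 gained regions (28.6% against 12.2% of all regions), without 8 Gy replicate 1 they had 30 (21.1% against 8.20%), and without 8 Gy replicate 2 they had 34 (23.3% against 14.1%). The lost regions numbered 17 without 0 Gy replicate 1 (11.2% against 6.80%), 14 without 0 Gy replicate 2 (9.52% against 8.49%) and 4 without 8 Gy replicate 1 (2.82% against 3.56%). Without 8 Gy replicate 2 there were 2 lost regions (1.37% against 1.41%). With lists of equal length the gained regions numbered 5, or 8.62% against 2.12%, and the lost regions 2, or 3.45% against 1.70%. The gained share was above its background in each of these. The lost share was above its own with equal lists and without either 0 Gy library, and below it without either 8 Gy library. These backgrounds are over all regions. Over regions without an HSC-3 call the gained background was higher with all libraries (5.95% against 3.51%), and it was not taken for the alternatives. Whether any of these shares differs from chance was not tested.

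Within the 25 KOSC-2-only regions, which every KOSC-2 library called, the relative height showed no common direction with dose. Both 8 Gy libraries were above both 0 Gy libraries at 4 regions and below them at 6, and the doses overlapped at the other 15. The highest of the 4 was the FAT3 region chr11:90480056-90480820, at 0.520 and 0.788 without irradiation and 1.0 and 1.08 after it. The 6 included the AUTS2 region chr7:70063938-70064427, at 0.880 and 1.04 without irradiation and 0.623 and 0.776 after it.

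The annotated starts of the genes were looked up as sequence only, since they were not placed on hg19. RefSeq promoter stretches of GRCh38, 300 bases each around a start, were matched for 5 of the 6 genes, and the dinucleotide CG was counted in each. AUTS2 had 55, a number reached by 0.373% of 35116 promoters, FMN2 had 38 (9.91%), CNTN5 had 30 (22.4%) and TMTC2 had 18 (44.5%), against a median of 14. RGS7 has 4 entries, with 46, 46, 41 and 2. These counts describe the genes and bear on no peak.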

How the data were processed

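ATAC-seq peak lists of 8 libraries were used, 1 list per library, grouped by line and dose from the labels. Per the submitters' processing notes the build is hg19 and the tools were MACS2 2.2.6, deepTools, Bowtie2 2.3.4.2, FastQC 0.11.7 and SAMtools 1.9, with neither role nor setting stated; treatment of duplicates, blacklists and the Tn5 shift is not given in the sources used here. The authors deposited, per peak, an integer score, a ratio (fold enrichment over background at the summit), a −log10 p-value, a −log10 q-value and a summit offset. Fold and p are relative to 1 library and were used to rank peaks within a list and to recover the summit pileup and its background, since fold is (pileup + 1) / (background + 1) and p a Poisson tail; 100% of peaks gave a whole pileup within 0.0001 of the deposited −log10 p. The lists hold no read totals, so depth was read from the background. The only interval computed was an exact binomial 95% interval of the HSC-3 share of calls in the windows, 5.38% to 11.05%. It treats calls as independent, which was not shown for regions or libraries, and served only to sort the alternatives.

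The members and lists were chosen with earlier results of these data known. Only chromosomes 1 to 22 and X were kept, and 590 peaks (0.191%) on other sequences were left out. Regions named in each window are, by rule, the KOSC-2-only, gained and lost regions of highest mean percentile, those called in most libraries and in most HSC-3 libraries, and those at the window ends; other regions with positions were chosen after their values were seen. Doses were compared by exact permutation within lines, with Benjamini-Hochberg adjustment over all regions. Alternatives were a −log10 q of at least 5, equal list lengths, windows widened by 100 kb, calls in at least 3 of 4 libraries, a call only where 50% of the region was covered, a replicate block, each library left out and, chosen after seeing the data, the 3 libraries of lowest enrichment left out. Comparisons that need hg19 gene positions or sequence (related gene families, cell type markers, sequence of the regions) are not analysed here. Scripts ran in Python 3.11.15 (scipy 1.17.1, pandas 2.3.3, numpy 2.4.6, matplotlib 3.10.9), and the functions were tested on simulated data.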

Additional observations from a re-analysis of the deposited data

How the results depend on the processing

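Of 265 alternative values over the results given, 39 moved and 9 changed sign. The other 217 kept their direction and, for tests, their side of the threshold, which no test of dose could pass. Without a test, differences in share moved by less than 1 SD between libraries, and counts by at most 1.5 times. The HSC-3 share of calls stayed within its exact binomial 95% interval, 5.38% to 11.05%. Many differences between doses kept their sign at another size: over the 6 windows the value, 0.0293 percentage points, was 0.0100 with lists of equal length, 0.0125 without the 3 libraries of lowest enrichment, and 0.0139 and 0.0447 without KOSC-2 0 Gy replicates 1 and 2, the lowest and highest with 1 library left out. Lists of equal length gave a difference in share between KOSC-2 and HSC-3 of 0.103 percentage points, 7 KOSC-2-only regions, 5 gained regions and an HSC-3 share of calls of 15.6%, against 49.7% over all regions. Windows widened by 100 kb gave an HSC-3 share of 13.5%, and calls in at least 3 of 4 libraries gave 58 KOSC-2-only regions, against 6.22% of all regions. Without the 3 libraries of lowest enrichment there were 52 KOSC-2-only regions (35.1% against 6.12% of all regions) and 17 lost regions (11.5% against 7.07%). Leaving out a library can loosen the definitions of KOSC-2-only, gained and lost. With 1 library left out at a time there were 25 to 52 KOSC-2-only, 14 to 42 gained and 2 to 17 lost regions. The highest shares over all regions were 5.55%, 14.1% and 8.49%, up from 2.07%, 3.51% and 0.870%, so these rises were not confined to the windows. Values that changed sign were differences between doses near 0: for TMTC2 0.000229 percentage points in widened windows, for RGS7 0.000235 without the 3 libraries of lowest enrichment, and, with 1 library left out at a time, between -0.00199 and 0.000743 for RGS7 and between -0.00229 and 0.00218 for TMTC2. The cause was not tested. The labels do not say what a replicate number marks, and 2 libraries per group cannot show it. With a replicate block (16 assignments, smallest exact p 0.125) mean differences are by construction those without it (0.0293 over the windows, 0.00443 for FMN2); the exact permutation p for FMN2 was 0.125, and no window could pass the threshold. Lists hold only called peaks, so accessibility under each library's limit was not detectable.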
